A study of Canis lupus familiaris with 12 samples.

Results

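The melanocyte lineage and pigment genes MITF, MC1R, TYR, TYRP1, MLPH, KIT, KITLG and ASIP were followed in Mi/CMM1, a cell line from an oral melanoma of a dog, on 12 single-colour Agilent arrays. They were taken as every probe annotated to the dog RefSeq transcript of 1 of these 8 genes. A probe was found for 7 of the 8 genes, 11 of the 43603 probes on the array in all: 3 for KIT, 2 each for MITF and ASIP, and 1 each for MC1R, TYR, MLPH and KITLG. TYRP1, an enzyme of melanin synthesis, matched no probe and was not analysed here.

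Control cells received no treatment, with no vehicle named, and the other groups received 1 nonsteroidal anti-inflammatory drug each, a cyclooxygenase inhibitor: piroxicam, carprofen or robenacoxib. Each group had 3 arrays. Dose and time are stated in conflicting versions. Sample labels list 116 µM piroxicam, 779 µM carprofen and 156 µM robenacoxib for 6 h, whereas the treatment protocol exchanges the first pair (piroxicam 779 µM, carprofen 116 µM) and gives 24 h. The concentrations of the drugs therefore differ in either version. All groups are the same line, so they speak for 1 tumour, and the series design calls the replicates biological without saying how the cultures were separated; if they were not separate, p-values measure technical spread.

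MITF is the transcription factor that directs melanocyte development and switches on pigment genes. MC1R, a receptor on the melanocyte surface, raises cyclic AMP when it binds melanocortin, and ASIP, the agouti protein, antagonises it. KIT is a receptor tyrosine kinase that melanocyte precursors need to migrate and survive, and KITLG, or stem cell factor, is its ligand, made mostly by neighbouring keratinocytes in skin. TYR, tyrosinase, catalyses the rate-limiting step of melanin synthesis, and TYRP1 acts further along that route. MLPH, melanophilin, links melanosomes to the actin motor that carries them to the cell's edge, and loss of its function dilutes coat colour in dogs.

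Array quality was even except for dim signal. Arrays of a group correlated at 0.9946 to 0.9982 over probes, arrays of different groups at 0.9901 to 0.9975, and no spot was saturated (0 of 43803 on each array). The share of spots well above background ranged from 66.2% to 72.8% on piroxicam arrays, 73.6% to 79.3% on control arrays, 70.6% to 80.0% on carprofen arrays and 73.1% to 75.9% on robenacoxib arrays. "Well above background" is the scanner software's own flag, and "processed signal" its background-subtracted brightness. The lowest processed signal that carried the flag lay between 13.6 and 19.3 on control arrays and between 21.3 and 28.5 on piroxicam arrays, against 13.2 to 20.9 with carprofen and 11.3 to 19.9 with robenacoxib. A dim probe thus had to be brighter on a piroxicam array to count as detected. Changes below are log2 differences of processed signal after subtraction of the 75th percentile of the array. Their standard errors (SE) are those of limma, and a change was called where the Benjamini-Hochberg adjusted p over 31996 tested probes was under 0.05.

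Of the 7 measured genes, 5 were expressed in untreated cells by the rule that a probe be well above background on all 3 control arrays: MITF, MC1R, MLPH, KITLG and ASIP. By the same rule 2 genes were detected with piroxicam (MITF and KITLG), 3 with carprofen (the same pair and MC1R) and 2 with robenacoxib (MITF and KITLG). Of all spots, 66.2% to 72.8% carried the flag on piroxicam arrays, against 73.6% to 79.3% on control arrays. The lowest flagged signal was 21.3 to 28.5 on the former and 13.6 to 19.3 on the latter. The part of that floor in the lower counts was not tested. MITF and KITLG were well above background on all 12 arrays. TYR was well above background on 0 of 12 arrays and KIT on 4 of 12 by its brightest probe. The looser flag for a positive signal distinct from background was met on all 3 control arrays by 6 genes, KIT in addition, and by TYR on none of the 12 arrays. In RNA pooled over a culture, fewer cells with a transcript and less of it per cell cannot be told apart.

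**Figure D1:**
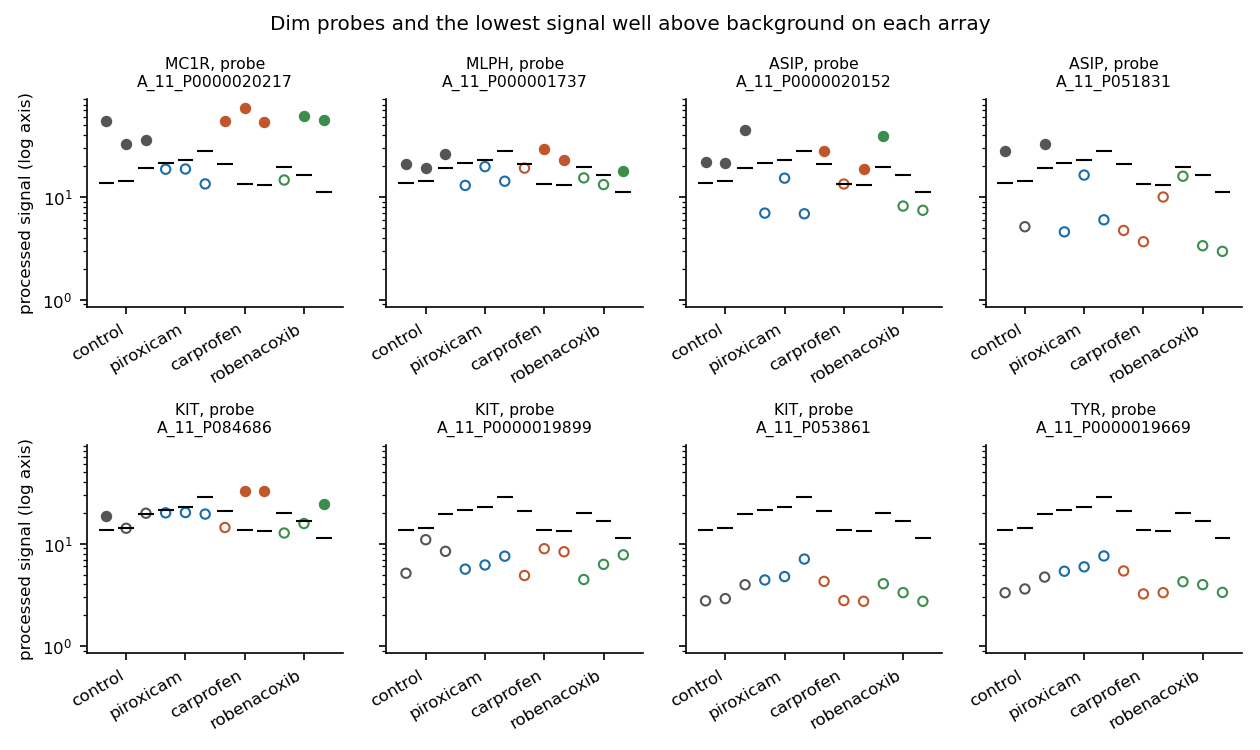
Processed signal (log axis) of the 8 probes that were not well above background on all 12 arrays; each point is 1 array in the order control, piroxicam, carprofen, robenacoxib, filled where well above background, and each black line is the lowest processed signal that carried that flag on that array. TYR and 2 KIT probes stay below the lines on every array, and the lines of the piroxicam arrays, at 21.3 to 28.5, are above those of the control arrays.

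The label was set against 12 melanocyte genes. MITF and SLC45A2, a melanosomal transporter, were well above background on all 12 arrays, MC1R on 8, MLPH on 6, KIT on 4 and TYR on 0; DCT, PMEL, MLANA, SOX10, OCA2 and TYRP1 were not analysed here. By these probes, transcript of MITF was detected and transcript of TYR, read by 1 probe, was not. All 4 measured fibroblast markers (COL1A1, COL1A2, DCN and TIMP1) were well above background on all 12 arrays. Their summed processed signal was 310940 to 329330 in control, 323110 to 346030 with piroxicam, 301780 to 327180 with carprofen and 297740 to 315100 with robenacoxib. Of 5 measured keratinocyte markers, TGM1 was well above background on all 12 arrays and KRT2 on 10, while KRT1, DSG1 and DSG3 were on 0; the sum over the 5 was 245 to 307 in control, at most 253 with piroxicam, 393 to 444 with carprofen and 289 to 311 with robenacoxib. The B-cell marker MS4A1 and the endothelial receptor KDR were on 0 arrays, with 4 of 6 leukocyte markers and 1 of 2 endothelial markers (VWF) detected on all 12. Leukocyte sums were 1230.0 to 1318 in control, 1540.3 to 1618 with piroxicam, 1552 to 1872 with carprofen and 1142 to 1693 with robenacoxib, and endothelial sums 2646 to 2787, 2938 to 3400.3, 2907 to 3637 and 2712 to 3046 in that order. The part of these markers in the results below was not tested.

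Of the 11 probes, 6 were tested, having the flag on every array of some group: both MITF probes and 1 probe each of MC1R, MLPH, KITLG and ASIP. MLPH and ASIP passed that filter through the control arrays alone, and MC1R through control and carprofen, so a difference from the groups where they were dim was built into their selection. Over all tested probes, 28% were called with piroxicam (11.9% higher, 16.1% lower), 32.8% with carprofen (13.3% higher, 19.5% lower) and 22.2% with robenacoxib (9.57% higher, 12.6% lower) against control. Of the 6 tested probes of the melanocyte genes, 1 was called lower with piroxicam (MLPH, which was well above background on 0 of the 3 piroxicam arrays), 1 was called lower with carprofen (MITF), and 0 were called with robenacoxib, where limma gave 3 of them an unadjusted p under 0.05. These shares are near or below the background. The 6 probes had median log2 changes of -0.37, -0.08 and -0.09 with piroxicam, carprofen and robenacoxib, against medians over all tested probes of -0.02, -0.02 and -0.03. Groups did not overlap for 4 of the 6 probes with piroxicam, 2 with carprofen and 3 with robenacoxib, beside 47.7%, 47% and 41.6% of all tested probes. The overall F-test across the 3 drugs called 4 of the 6 (MITF, MC1R, MLPH and KITLG), where 48% of all tested probes were called.

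**Figure D2:**
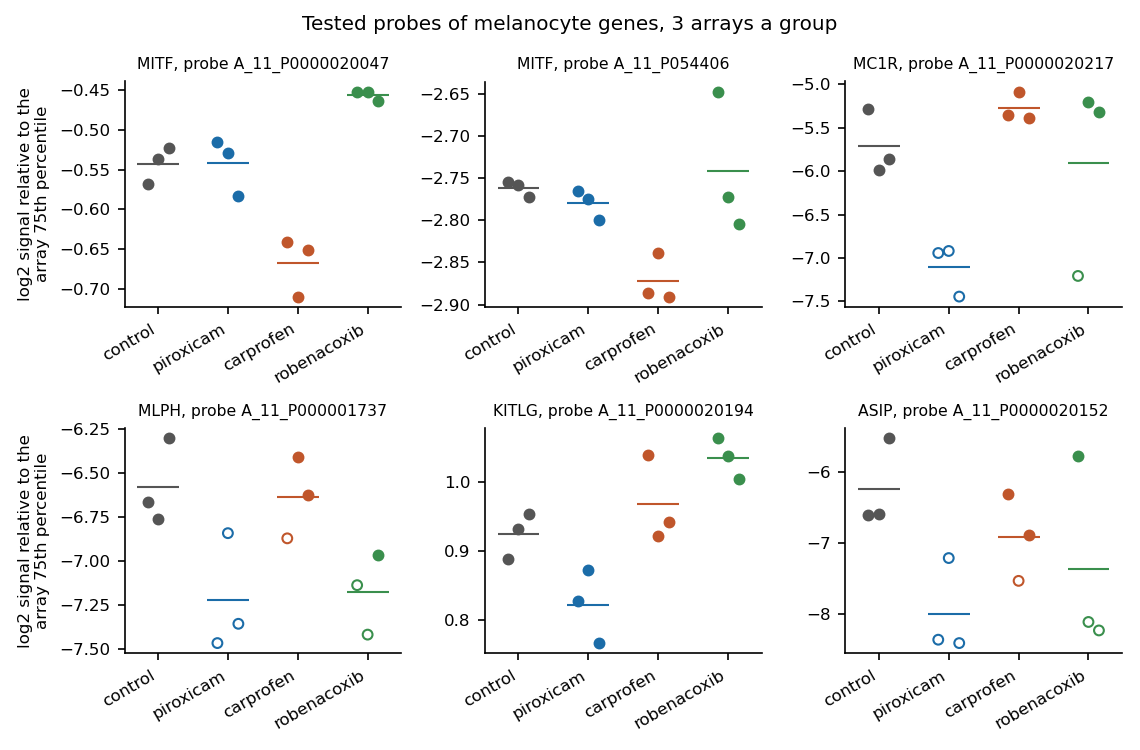
Log2 processed signal minus that array's 75th percentile for the 6 tested probes; points are single arrays, filled where well above background, and bars are group means of 3 arrays. MITF probe A_11_P0000020047 is lowest on the 3 carprofen arrays, and the 3 piroxicam arrays of MC1R are all open points.

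MITF, the lineage regulator, was lowest with carprofen and highest with robenacoxib relative to the 75th percentile, with differences of at most 0.21 on the log2 scale. Its brighter probe, A_11_P0000020047, gave processed signals of 1442, 1449 and 1446 in control, 1611, 1578 and 1565 with piroxicam, 1441, 1525 and 1437 with carprofen, and 1586, 1659 and 1626 with robenacoxib. Unscaled, carprofen thus overlapped control. The 75th percentile of the carprofen arrays was 2260 to 2502, above the 2084 to 2149 of the control arrays, and relative to it MITF stood at -0.57, -0.54 and -0.52 in control and at -0.64, -0.71 and -0.65 with carprofen. On that scale the groups did not overlap.

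With carprofen the brighter MITF probe fell by 0.13 (SE 0.03, adjusted p = 0.00797), which places control 1.09-fold above carprofen; scaling to spiked-in transcripts turned the change to 0.22 (adjusted p = 0.00136). The second MITF probe, A_11_P054406, read 317, 311 and 304 in control, 339, 333 and 337 with piroxicam, 304, 349 and 304 with carprofen, and 346, 332 and 321 with robenacoxib. With carprofen it differed by -0.11 (SE 0.04, adjusted p = 0.0544), or by 0.23 with spike-in scaling (adjusted p = 0.000431). Without robenacoxib 1 or 3 the difference of -0.11 was called (adjusted p = 0.0097 and 0.0405). Only carprofen 1 shared a slide with the controls. When slide entered the model as a blocking term (the slide-blocked fit), the brighter probe's difference was -0.10, with adjusted p = 0.102. By design that estimate is the difference within the slide of the controls, where carprofen had 1 array. Leaving out each array in turn, without the block, kept the brighter probe's difference between -0.14 and -0.10 with adjusted p of 0.00762 to 0.0328.

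No difference in MITF was called between piroxicam and control. The brighter probe differed by 0.0001 (95% interval -0.06 to 0.06, adjusted p = 0.998) and the second by -0.02 (interval -0.10 to 0.07, adjusted p = 0.762). The authors' deposited values placed the second probe lower with piroxicam by limma, at -0.23 (adjusted p = 0.0226), and spike-in scaling higher, at 0.16 (adjusted p = 0.00961), so its direction rests on the processing. With robenacoxib the brighter probe stood at -0.45, -0.45 and -0.46, above every control array, a difference of 0.09 (SE 0.03, adjusted p = 0.054) that was called with spike-in scaling (0.39, adjusted p = 8.09e-05), and at its own size without piroxicam 3 (adjusted p = 0.0474) or carprofen 2 (adjusted p = 0.0432). The second probe differed by 0.02 (adjusted p = 0.764). The probes of MITF correlated at r = 0.733 over the 12 arrays, which share scaling and slides. The brighter probe ran in the order robenacoxib, piroxicam, control, carprofen, with the neighbours piroxicam and control not told apart. The second probe had control above piroxicam, and no pair of its neighbours was called.

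MC1R, the melanocortin receptor, was dim and varied within groups. Processed signals were 54.8, 33.1 and 35.7 in control, 18.7, 18.8 and 13.5 with piroxicam, 54.9, 73.4 and 53.7 with carprofen, and 14.7, 61.5 and 56.0 with robenacoxib. The piroxicam arrays were all below the control arrays and none was well above background, and robenacoxib 1 stood apart from robenacoxib 2 and 3. Against control the piroxicam difference was -1.39 (SE 0.47, adjusted p = 0.0523, interval -2.44 to -0.34), which missed the threshold. At this scaling the control mean stood 1.83-fold above the detection floor of the piroxicam arrays, a figure that leaves out the spread between arrays. Carprofen differed from control by 0.43 (SE 0.47, adjusted p = 0.528, interval -0.62 to 1.48) and robenacoxib by -0.20 (SE 0.47, adjusted p = 0.813, interval -1.25 to 0.85).

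Robenacoxib 1 set much of the spread of MC1R. Without it, the piroxicam difference kept its size and had an adjusted p of 0.00193 (0.0438 without robenacoxib 2), while robenacoxib differed from control by 0.45. The normexp background corrections and the authors' values, which raise dim signal, shrank the piroxicam difference to between -0.48 and -0.26.

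ASIP, the antagonist of MC1R, was measured by a pair of dim probes. The tested probe, A_11_P0000020152, read 21.8, 21.7 and 44.9 in control, 6.99, 15.3 and 6.89 with piroxicam, 28.3, 13.4 and 19.03 with carprofen, and 39.5, 8.19 and 7.44 with robenacoxib. Every piroxicam array was below every control array, and robenacoxib 1 was again apart from its group, here on the high side. At this scaling the control mean stood 1.26-fold above the floor of the piroxicam arrays, on a probe that passed the filter through its control arrays. The piroxicam difference was -1.75 (SE 0.67, interval -3.26 to -0.24, adjusted p = 0.0814, and 0.0206 without robenacoxib 1). It was -0.64 in the slide-blocked fit, -0.30 and -0.22 with the normexp corrections and -0.44 in the authors' values. Carprofen differed by -0.67 (adjusted p = 0.499) and robenacoxib by -1.13 (adjusted p = 0.272). Robenacoxib 2 and 3 were not well above background, so no size of difference can be read from them.

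The other ASIP probe, A_11_P051831, was well above background on 2 of 12 arrays, both controls (28.0 and 32.9), and read 5.15 on the remaining control array and 2.96 to 16.4 on the treated arrays. It was not tested. The ASIP probes correlated at r = 0.708 over the 12 arrays, with both not well above background on 6 of them.

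MLPH, the melanosome linker, read 21.0, 19.4 and 26.3 in control, 13.0, 19.8 and 14.3 with piroxicam, 19.2, 29.3 and 22.9 with carprofen, and 15.4, 13.3 and 17.9 with robenacoxib. It was well above background on 3 control, 0 piroxicam, 2 carprofen and 1 robenacoxib arrays. Piroxicam 2, at 19.8, was not well above background, although control 2, at 19.4, was. Relative to the 75th percentile the fitted difference of MLPH with piroxicam was -0.64 (SE 0.20, adjusted p = 0.0388), which rests on signal below detection and on a probe that passed the filter through its high control arrays. The control mean stood 1.003-fold above the detection floor of the piroxicam arrays. The part of that higher floor in the low piroxicam signals of MLPH, MC1R and ASIP was not tested.

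The call for MLPH did not outlast other processing. Its piroxicam difference was -0.31 after quantile normalization (adjusted p = 0.207), -0.06 in the authors' values (adjusted p = 0.707) and -0.93 in the slide-blocked fit (adjusted p = 0.203). It lost the call without control 1, 2 or 3, piroxicam 1 or 3, carprofen 3 or robenacoxib 1, with adjusted p from 0.0509 to 0.129, the last without control 3 at -0.51. Robenacoxib differed from control by -0.60 (SE 0.20, adjusted p = 0.0603, and 0.0349 without piroxicam 2) with no overlap, and carprofen by -0.06 (SE 0.20, adjusted p = 0.861).

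KIT, the receptor, was near or below detection in every group. Its brightest probe, A_11_P084686, read 18.4, 14.1 and 19.8 in control, 19.97, 20.1 and 19.4 with piroxicam, 14.4, 32.6 and 32.7 with carprofen, and 12.7, 15.7 and 24.5 with robenacoxib. It was well above background on 1 control array, 0 piroxicam arrays, 2 carprofen arrays and 1 robenacoxib array. The other KIT probes ranged from 4.47 to 10.9 and from 2.74 to 7.08 over the 12 arrays and were never well above background. No KIT probe was tested, and correlations between them ran from -0.463 to 0.424, so they give no common pattern.

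KITLG, the ligand of KIT, was by contrast measured well above background throughout. Its processed signals were 3959, 4009 and 4023 in control, 4084, 4168 and 3987 with piroxicam, 4618, 4725 and 4339 with carprofen, and 4535, 4662 and 4495 with robenacoxib. On this unscaled signal every carprofen and robenacoxib array exceeded every control array. Relative to the 75th percentile KITLG stood at 0.89, 0.93 and 0.95 in control, 0.83, 0.87 and 0.77 with piroxicam, 1.04, 0.92 and 0.94 with carprofen, and 1.06, 1.04 and 1.004 with robenacoxib. Piroxicam was below control without overlap and robenacoxib above it.

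Neither of those differences passed the threshold against control. Piroxicam differed by -0.10 (SE 0.04, adjusted p = 0.0824) and robenacoxib by 0.11 (SE 0.04, adjusted p = 0.0764), while carprofen differed by 0.04 (SE 0.04, adjusted p = 0.456). Both were called without carprofen 1, at adjusted p = 0.0482 and 0.044. The piroxicam direction turned in the slide-blocked fit (0.03, adjusted p = 0.787) and with spike-in scaling (0.07, adjusted p = 0.24). Spike-in scaling called KITLG higher with carprofen (0.39, adjusted p = 7.44e-05) and robenacoxib (0.41, adjusted p = 8.27e-05).

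TYR, tyrosinase, read 3.32, 3.62 and 4.72 in control, 5.38, 5.94 and 7.59 with piroxicam, 5.42, 3.236 and 3.33 with carprofen, and 4.26, 3.99 and 3.35 with robenacoxib. Every value lay under the lowest signal that was well above background on its array. No difference can be read from signals at this level, and TYR was not detectable rather than absent. The highest of them, 5.94 and 7.59, came from the 2 arrays with the highest detection floors, piroxicam 2 and 3.

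The drugs were next set against each other, at concentrations that were not matched. Between carprofen and piroxicam 37.5% of all tested probes were called, and of the 6 probes of melanocyte genes 4 were: 3 higher with carprofen (18.6% of all tested probes) and 1 lower (18.9%). Groups did not overlap for 4 of the 6, beside 47.1% of all tested probes. Of the 3 higher, MC1R had passed the filter through control and carprofen, and MLPH through control alone. Both were well above background on 0 piroxicam arrays. Low piroxicam values were thus favoured by their selection, which limits the comparison of these counts with the shares of all tested probes. MC1R was higher with carprofen by 1.82 (SE 0.47, adjusted p = 0.0125, interval 0.77 to 2.87), with no overlap. At this scaling the carprofen mean stood 2.47-fold above the piroxicam floor, which leaves out the spread between arrays. In the slide-blocked fit the difference was 1.69 (adjusted p = 0.0809). No slide other than that of carprofen 2 and 3 with piroxicam 1 and 2 held both drugs. The blocked estimate is therefore by design the difference within that slide, not a second check. A fit to that slide alone gave it an adjusted p of 0.0261. In the authors' values the difference was 0.88 (adjusted p = 0.0463) and with the normexp corrections 0.48 and 0.52.

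KITLG was higher with carprofen than with piroxicam by 0.15 (SE 0.04, adjusted p = 0.0165), and by 0.08 in the slide-blocked fit (adjusted p = 0.122). Without piroxicam 3 it was 0.12 (adjusted p = 0.0611). For MLPH the fitted difference was 0.59 (SE 0.20, adjusted p = 0.0434), with overlapping groups and, in the slide-blocked fit, an adjusted p of 0.0923. As the carprofen mean lay under the detection floor of the piroxicam arrays, this difference was not sized against that floor. It lost the call without control 1 or 2, piroxicam 1 or 3, carprofen 2 or 3, or robenacoxib 1, at 0.46 to 0.59 (adjusted p = 0.0515 to 0.142). The brighter MITF probe was lower with carprofen by 0.13 on the log2 scale (a change of -0.13, SE 0.03, adjusted p = 0.00638) and by more in the slide-blocked fit (-0.16, adjusted p = 0.00723), but stood at 0.04 with spike-in scaling (adjusted p = 0.431). ASIP differed by 1.08 (SE 0.67, adjusted p = 0.247, interval -0.42 to 2.59).

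Between robenacoxib and piroxicam 27.1% of all tested probes were called, and 2 of the 6 were, both higher with robenacoxib (13.9% of all tested probes, against 13.2% lower). Groups did not overlap for 2 of the 6, beside 41.9%. KITLG was higher by 0.21 (SE 0.04, adjusted p = 0.00351), a 1.16-fold difference with no overlap. It was 0.27 in the slide-blocked fit (adjusted p = 0.00533), and 0.34 with spike-in scaling (adjusted p = 0.000607). Each leave-out kept the call, at 0.19 to 0.24. The blocked estimate of 0.27 is by design the difference within the slide of the robenacoxib arrays. That slide held piroxicam 3 as the 1 array of its group, the lowest of the piroxicam arrays for KITLG (0.77). The brighter MITF probe was higher by 0.09 (SE 0.03, adjusted p = 0.0473), and by 0.13 in the slide-blocked fit (adjusted p = 0.0464), but the call held only without carprofen 1 or 2 among the 12 leave-outs, the others giving 0.07 to 0.10 and adjusted p up to 0.151. MC1R, well above background on 0 piroxicam arrays, differed by 1.19 (SE 0.47, adjusted p = 0.0917), and by 1.84 without robenacoxib 1 (adjusted p = 0.000952).

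Between robenacoxib and carprofen 8.15% of all tested probes were called, and of the 6 only the brighter MITF probe was, higher with robenacoxib (4.42% of all tested probes were higher and 3.74% lower). Groups did not overlap for 3 of the 6, beside 27.1%. Its difference was 0.21 (SE 0.03, adjusted p = 0.00304, 1.16-fold), with every robenacoxib array above every carprofen array. The second MITF probe pointed the same way at 0.13 (SE 0.04, adjusted p = 0.0722). These groups shared no slide. In the slide-blocked fit the brighter probe's difference was 0.29 (adjusted p = 0.0801), and with spike-in scaling 0.17 (adjusted p = 0.0721). KITLG differed by 0.07 (SE 0.04, adjusted p = 0.348, interval -0.02 to 0.16), so in the order robenacoxib, carprofen, control, piroxicam no pair of neighbours of KITLG was told apart.

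**Figure D3:**
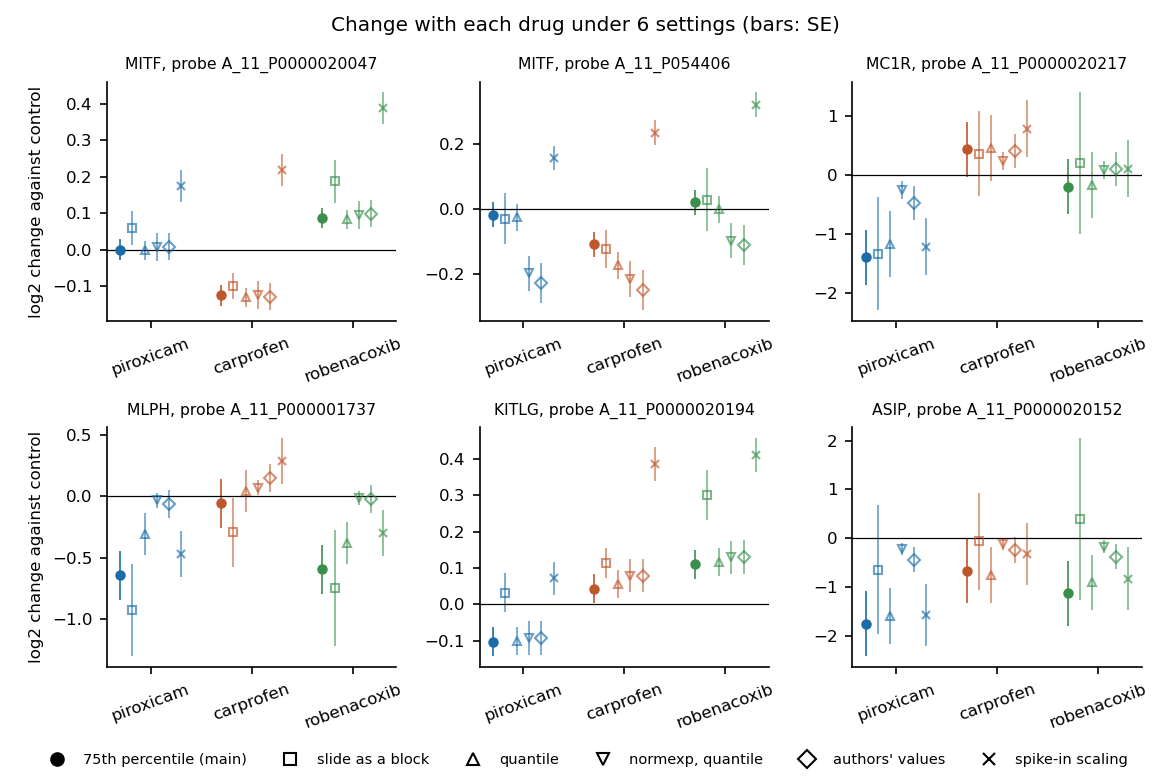
Log2 change against control of the 6 tested probes with each drug under 6 settings, with SE bars; the filled circle is the main setting. The brighter MITF probe with carprofen lies below 0 in 5 settings and at 0.22 with spike-in scaling, and with piroxicam the dim probes of MC1R, MLPH and ASIP lie nearer to 0 with normexp correction and in the authors' values.

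The slide block and the scaling bear on the calls. The slide-blocked fit called 5.09%, 16.4% and 1.41% of all tested probes with piroxicam, carprofen and robenacoxib against control, and 0 of the 6 each time. It called 30.4% between carprofen and piroxicam (1 of the 6, MITF), 18.3% between robenacoxib and piroxicam (2 of the 6, MITF and KITLG), 0.253% between robenacoxib and carprofen (0 of the 6) and 36.3% by F-test (2 of the 6, MITF and KITLG).

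The scaling choice bears on every direction given here. Spike-in scaling raised the median log2 change of all tested probes: the shift was 0.17 for piroxicam, 0.34 for carprofen and 0.30 for robenacoxib. The share of called probes that were higher than control went from 42.5%, 40.7% and 43.1% to 93.1%, 99.7% and 99.3%. A change relative to the 75th percentile is therefore a change relative to the bulk of transcripts. Against those shifts MITF with carprofen (0.22) remained under the median of all tested probes (0.32), and KITLG with robenacoxib (0.41) above it (0.27).

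Genes around these pathways were read from lists of which the array names few members. Of 41 melanosome and melanin synthesis genes 3 were measured, all well above background on 12 arrays. ATP7B, a copper transporter, was higher with piroxicam by 0.15 (SE 0.04, adjusted p = 0.0138) and with carprofen by 0.12 (SE 0.04, adjusted p = 0.0369), and neither call held in the slide-blocked fit (adjusted p = 0.326 and 0.188). SLC45A2 (0.04, 0.15 and -0.07 with piroxicam, carprofen and robenacoxib) and AP3B1 (-0.02, -0.03 and 0.005), an adaptor subunit of melanosome sorting, were not called.

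Of 17 melanosome transport genes 5 were measured, and with piroxicam 4 of the 5 were lower and 0 higher, beside 16.1% of all tested probes lower; with spike-in scaling 0 of the 5 were lower. RAB7A, a late endosome GTPase, fell by 0.24 (SE 0.06, adjusted p = 0.0143), RAB5A of early endosomes by 0.16 (SE 0.03, adjusted p = 0.00344), RAB11A of recycling endosomes by 0.15 (SE 0.04, adjusted p = 0.0148) and RAB1A of the secretory route by 0.12 (SE 0.03, adjusted p = 0.021). In the slide-blocked fit 0 of the 5 were called. Both tested RAB7A probes and all 3 of RAB1A were called lower, but 1 of 2 for RAB5A and for RAB11A. RAB27A, which recruits MLPH to melanosomes, was not called (0.09, SE 0.04, adjusted p = 0.0995). With carprofen 1 was higher (RAB5A, 0.12, adjusted p = 0.0141) and 2 lower (RAB7A, -0.18, adjusted p = 0.0409, and RAB11A, -0.11, adjusted p = 0.0407), although spike-in scaling placed all 5 higher. With robenacoxib 0 of the 5 were called on the brightest probe, or 4 higher with spike-in scaling. Among the other probes, 2 of RAB1A were called lower with carprofen, and 1 each of RAB1A and RAB7A with robenacoxib.

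Of 37 genes of melanocyte fate and coat colour 8 were measured and 5 tested, with 2 higher with piroxicam, 0 called with carprofen and 1 higher with robenacoxib. SNAI2, a zinc finger factor of neural crest and melanoblast migration, read 11626 to 12107 in control and 16048 to 16690 with piroxicam, with no overlap. It rose by 0.33 with piroxicam (SE 0.03, adjusted p = 8.8e-05), by 0.41 in the slide-blocked fit (adjusted p = 0.00924) and by 0.50 with spike-in scaling (adjusted p = 8.85e-05). With carprofen it differed by -0.05 (adjusted p = 0.207) and with robenacoxib by 0.03 (adjusted p = 0.519). MET, the receptor of hepatocyte growth factor, rose by 0.15 with piroxicam (SE 0.03, adjusted p = 0.00655) and 0.11 with robenacoxib (SE 0.03, adjusted p = 0.0251). Neither call held in the slide-blocked fit (adjusted p = 0.267 and 0.573) or was shared by its other tested probe. With carprofen that other probe of MET was called lower. HGF, the ligand of MET, SOX9 and the melanocortin receptor MC4R were tested and not called. The endothelin receptor EDNRB was well above background on 0 of 12 arrays and its ligands EDN1 and EDN3 on 1 and 5, and none was tested.

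Of 25 reported MITF targets 7 were measured, among them MC1R and TYR. Of the 5 tested, 1 rose with piroxicam (MET) and 1 fell (CTSK, the protease cathepsin K, by 0.12, SE 0.03, adjusted p = 0.0107, but 0.06 with spike-in scaling), 1 rose with carprofen and 2 with robenacoxib. BCL2, an inhibitor of apoptosis, rose by 0.16 with carprofen (SE 0.04, adjusted p = 0.00715) and by 0.19 with robenacoxib (SE 0.04, adjusted p = 0.00493), against -0.03 with piroxicam (adjusted p = 0.573). In the slide-blocked fit no target was called. With carprofen, then, BCL2 was called higher relative to the 75th percentile while the brighter MITF probe was called lower; with spike-in scaling both were higher.

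Of 30 genes of KIT and MAPK signalling 5 were measured. On the brightest tested probe of each, 2 were higher and 0 lower with piroxicam and 0 were called with carprofen or robenacoxib. The receptor kinases related to KIT that were measured both rose with piroxicam: FLT3 by 0.29 (SE 0.04, adjusted p = 0.000599) and PDGFRB by 0.50 (SE 0.14, adjusted p = 0.0239) on 1 of its 2 tested probes. In the slide-blocked fit FLT3 stood at 0.22 (adjusted p = 0.0852) and PDGFRB at 0.11 (adjusted p = 0.821). The kinases MAP2K1, MAP2K2 and MAPK14 were not called with any drug on their brightest tested probes. The other tested MAP2K2 probe was called lower with piroxicam and with carprofen.

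Of 19 genes listed for cyclic AMP signalling 5 were measured and 1 was called on its brightest tested probe, lower with each drug. PRKACA, the catalytic subunit of the kinase that MC1R activates, read 281 to 303 in control. Its fall measured -0.34 with piroxicam (SE 0.06, adjusted p = 0.00339), then -0.20 with carprofen (SE 0.06, adjusted p = 0.0316) and -0.26 with robenacoxib (SE 0.06, adjusted p = 0.0145). The comparisons share the control arrays, no call held in the slide-blocked fit, and with spike-in scaling the changes were -0.16, 0.14 and 0.04. GNAS and CREM were not called on their brightest tested probes, nor were PDE6A and PDE6B. The latter pair is listed here although its phosphodiesterase acts on cyclic GMP in photoreceptors. Of the 5 tested GNAS probes, 1 was called lower with piroxicam and 2 with carprofen.

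**Figure D4:**
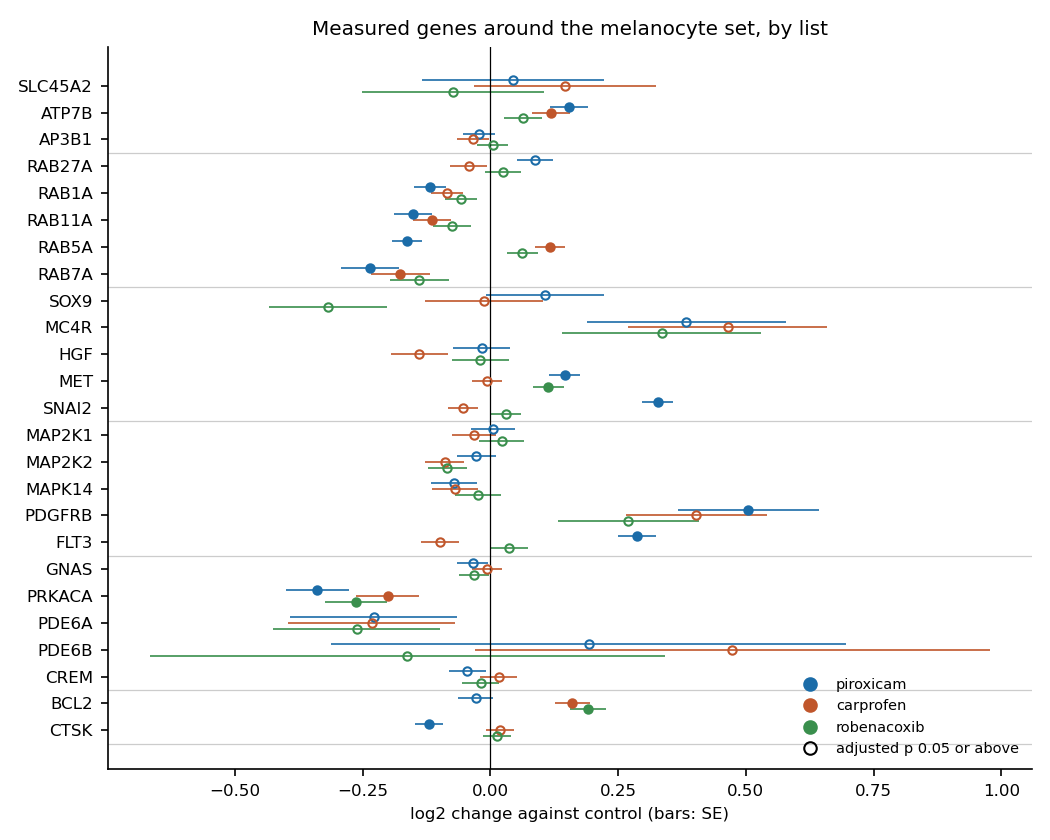
Log2 change against control of the tested genes of 6 lists (melanosome and melanin synthesis, melanosome transport, fate and coat colour, KIT and MAPK signalling, cyclic AMP, reported MITF targets, separated by grey lines, with each gene shown once), with SE bars; filled points were called at an adjusted p under 0.05. SNAI2 with piroxicam stands at 0.33, and PRKACA is filled to the left of 0 for all 3 drugs.

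Of 613 other named genes, those whose pattern over the 12 arrays was most like that of a melanocyte gene were listed by Pearson r, as a description. The arrays share their scaling, slides and control group. For the brighter MITF probe they were ESRRA (r = 0.886), an orphan nuclear receptor, and SEC61B (0.87) and SEC61G (0.83), subunits of the endoplasmic reticulum translocon. Relative to the 75th percentile ESRRA was lower with carprofen (-0.09, adjusted p = 0.00954) and higher with robenacoxib (0.18, adjusted p = 0.00065). For KITLG they were MDM2 (0.952), the p53 ubiquitin ligase, RAB22A (0.842) and PTGS2 (0.817), which encodes the cyclooxygenase-2 that these drugs inhibit. PTGS2 was lower with piroxicam (-0.49, adjusted p = 0.000108) and higher with carprofen (0.47, adjusted p = 0.000111) and robenacoxib (0.30, adjusted p = 0.00193). MDM2 was called higher with robenacoxib (0.12, adjusted p = 0.0358) and RAB22A was not (0.11, adjusted p = 0.0555).

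For MC1R the nearest were CAMP (0.922), NR4A1 (0.867) and AGER (0.856), each well above background on 12 arrays but called with no drug. For MLPH they were DLA-DQB1 (0.882), LOC448801 (0.854) and SAG (0.848). DLA-DQB1 and SAG were themselves well above background on only 6 and 5 arrays, so these likenesses involve signal near the detection floor, whose part in them was not tested.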

How the data were processed

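Scans were quantified by Feature Extraction 10.7.3.1, per the file headers. Values in the deposited scanner files are intensities per spot from which the software had subtracted a local background; the authors' deposited value table is on a log2 scale, credited to limma 3.24.15 by the submitters' processing notes, and served as an alternative. After control and outlier-flagged spots were removed, log2 processed signals were averaged by probe and centred on the 75th percentile of each array. A linear model was fitted with limma 3.58.1 (lmFit and eBayes, R 4.3.3, version 1.17.8 of data.table) to all 12 arrays, with 8 residual degrees of freedom, and tests were two-sided. A probe was tested if some group had it well above background on its 3 arrays (31996 probes), with Benjamini-Hochberg adjustment within each comparison and a threshold of 0.05. The code was tested on simulated data. Precision is limited by 3 arrays a group, with a median SE of 0.05 for a log2 change.

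Slide 1 held the controls and carprofen 1, slide 2 carprofen 2 and 3 with piroxicam 1 and 2, and slide 3 piroxicam 3 and the robenacoxib arrays. Slide was fitted as a block (6 residual degrees of freedom) and comparisons were repeated within a slide. Block values for piroxicam and robenacoxib against control pass through carprofen 1, as no slide joined them to control. Those for robenacoxib against any group also rest on piroxicam 3, the only other array on its slide. Where 1 slide joined a pair of groups, the block estimate equals the difference within that slide by design. Normexp correction used an offset of 50 on median signals, in place of the mean signals planned, and spike-in scaling used 8 control probes. The remaining alternatives were the filter, outlier spots, quantile normalization, replicate number as a block and leave-outs.

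Transcript accessions were matched to symbols in a RefSeq gene table (assembly UU_Cfam_GSD_1.0), which named 1313 probes (3.01%) and 832 genes, 614 of them tested. Genes of the lists were read on their brightest tested probe. The members, lists and tests were chosen with earlier results of these data known. Named were all members, every measured gene of the melanosome, transport and fate lists, up to 4 genes of each other list by F-test, and the 3 genes most like each member that passed the F-test; untested list genes and those listed as not called were added after values were seen. Some genes of the signalling list are not reported here and were left out of its counts.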

Additional observations from a re-analysis of the deposited data

How the results depend on the processing

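Counts refer to the 6 tested probes of melanocyte genes, or to all 11 probes where no filter on dim probes was used. With only probes well above background on all 12 arrays, the MITF and KITLG probes alone remained. The probes of MC1R, MLPH and ASIP could not be called in that setting. For piroxicam against control (1 called) the count was 0 with normexp at the 75th percentile, quantile normalization, no filter on dim probes, only probes well above background on all 12 arrays, or slide as a block, and 2 (both higher) with spike-in scaling. For carprofen against control (1) it was 0 with normexp at the 75th percentile, slide as a block or within 1 slide, 2 with quantile normalization with or without normexp, the authors' values or probes detected on all 12 arrays, and 3 (all higher) with spike-in scaling. For robenacoxib against control (0) it was 3 with spike-in scaling and 1 with probes detected on all 12 arrays. For carprofen against piroxicam (4) it was 2 with normexp at the 75th percentile or probes detected on all 12 arrays, and 1 with slide as a block or within 1 slide. For robenacoxib against piroxicam (2) it was 1 with either normexp setting, the authors' values or no filter, and 0 within 1 slide. For robenacoxib against carprofen (1) it was 2 with quantile normalization and 0 with spike-in scaling or slide as a block. The F-test count (4) was 2 with normexp at the 75th percentile, no filter, probes detected on all 12 arrays, or slide as a block. Within 1 slide there are few arrays and probes detected on all 12 arrays are fewer; for the other settings the cause was not tested.

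Leaving out 1 array at a time gave 0 to 2, 1 to 2 and 0 to 1 calls for piroxicam, carprofen and robenacoxib against control, 2 to 4 for carprofen against piroxicam, 1 to 2 for robenacoxib against piroxicam, 1 for robenacoxib against carprofen, 2 to 5 by F-test and 5 expressed genes in control. Without control 3 and piroxicam 3, a choice made after seeing the data, the counts were 0 for piroxicam against control, 1 each for carprofen and robenacoxib against piroxicam and 2 by F-test.

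Called on at least 1 side, values turned sign with spike-in scaling for the brighter MITF probe with carprofen against control (0.22) and against piroxicam (0.044) and for the second MITF probe with piroxicam (0.16) and carprofen (0.23) against control. Values called on neither side that turned with spike-in scaling include KITLG with piroxicam (0.07), MLPH with carprofen (0.29), MC1R with robenacoxib (0.10) and the second MITF probe for carprofen against piroxicam (0.08). List genes called went, with spike-in scaling, from 11 to 29 for carprofen, 6 to 25 for robenacoxib, 9 to 16 for robenacoxib against piroxicam and 3 to 1 for robenacoxib against carprofen, and with slide as a block to 2 for piroxicam (from 14), 3 for carprofen and 0 for robenacoxib against control and 0 for robenacoxib against carprofen. Over all tested probes the slide block called 1629, 5232 and 451 against control in place of 8950, 10494 and 7106, and 81 in place of 2609 for robenacoxib against carprofen.

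Replicate numbers are shared between groups. Of 18 same-numbered pairs 3 correlated over 0.1 (range -0.45 to 0.2), and 1 of 12 arrays was closest to its own number. Most same-numbered arrays lay on different slides, so these correlations cannot decide whether cultures were paired. The main fit left the number out. With replicate number as a block the counts were 0 for piroxicam against control, 1 for robenacoxib against piroxicam and 2 by F-test, and over all tested probes 7468, 9020 and 5491 against control.

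Signal near background limits MC1R, MLPH, ASIP, KIT and TYR, and slides limit every comparison with control.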

Other observations

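TGM1, a transglutaminase of the keratinocyte list, was well above background on all 12 arrays and moved in opposite directions. It fell by 0.61 with piroxicam (SE 0.07, adjusted p = 0.000206) and rose by 0.60 with carprofen (SE 0.07, adjusted p = 0.000196), with 0.19 for robenacoxib (adjusted p = 0.0718). Spike-in scaling kept both calls (-0.44 and 0.94), and with slide as a block the carprofen call held (0.68, adjusted p = 0.00427) and the piroxicam call did not (-0.47, adjusted p = 0.0761).

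Relative to the 75th percentile, the fibroblast collagens COL1A1 and COL1A2 fell by 0.19 and 0.16 with carprofen (SE 0.03 each, adjusted p = 0.00156 and 0.00394). Spike-in scaling placed both higher with carprofen, at 0.16 and 0.18. COL1A1 was also called lower with robenacoxib (-0.12, adjusted p = 0.019) and COL1A2 with piroxicam (-0.10, adjusted p = 0.0413). The slide-blocked fit kept neither of the latter calls (adjusted p = 0.928 and 0.514). For COL1A1, 2 of 4 probes were called lower with carprofen and 2 with robenacoxib. For COL1A2, 5 of 6 were called lower with carprofen and 5 with piroxicam. TIMP1, an inhibitor of matrix proteases, fell by 0.18 with carprofen (adjusted p = 0.00502) and 0.19 with robenacoxib (adjusted p = 0.00631), differences that spike-in scaling turned to 0.17 and 0.11. DCN, decorin, fell by 0.42 with piroxicam (SE 0.11, adjusted p = 0.0174), or by 0.25 without passing the threshold with spike-in scaling (adjusted p = 0.0781). DCN was also called lower with robenacoxib (-0.35, SE 0.11, adjusted p = 0.0447), a call that the slide-blocked fit did not keep (adjusted p = 0.308). Of the 4 fibroblast markers, 2 were called lower with piroxicam, 3 with carprofen and 3 with robenacoxib on their brightest tested probes. CD86, a costimulatory ligand of the leukocyte list, fell by 0.23 with carprofen (SE 0.05, adjusted p = 0.00968), which spike-in scaling turned to 0.12 (adjusted p = 0.103). With slide as a block COL1A1 remained called with carprofen (-0.14, adjusted p = 0.0464), but COL1A2, TIMP1 and CD86 with carprofen (adjusted p = 0.0745, 0.08 and 0.0787), TIMP1 with robenacoxib (0.238) and DCN with piroxicam (0.125) did not.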
